A study of Mus musculus with 46 samples.

Results

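The E2F and retinoblastoma family studied here comprises 9 genes: the E2F transcription factor genes E2f1, E2f2, E2f3, E2f4, E2f7 and E2f8, and the genes of the 3 pocket proteins, Rb1, Rbl1 and Rbl2. They were taken by symbol from the 21671 genes of the deposited expression table, without regard to their values, and all 9 were among the 14566 genes expressed highly enough to be tested. Expression was measured by RNA sequencing of bulk tissue from FVB mice in 4 groups. Control liver, for which the labels give no transgene, contributed 11 libraries from 11 animal IDs. Myc tumours carried a tet-Myc transgene driven by LAPtTA, a liver-specific transactivator, with the transgene on since before birth (16 libraries, 7 IDs). Myc-off tumours carried the same transgenes and came from mice given doxycycline food for 16 h, which turns tet-Myc off (8 libraries, 3 IDs). MycVD tumours carried tet-MycVD with LAPtTA, on since before birth, whose Myc has the V394D substitution, known to weaken binding to the transcription factor Miz1 (11 libraries, 10 IDs). Ages are not given in the labels. All tumours therefore shared the liver-restricted driver, and the control livers shared neither transgene as far as the labels say.

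Activating E2F proteins bind the promoters of genes for DNA replication and S-phase entry and switch them on. In resting cells the pocket proteins, Rb and its relatives p107 (from Rbl1) and p130 (from Rbl2), bind E2F proteins and hold these promoters silent, until cyclin-dependent kinases phosphorylate them and set the E2Fs free. E2F7 and E2F8 bind the same kind of site without a pocket protein and repress, and in liver they are known for their part in making hepatocytes polyploid.

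Levels are exonic RPKM (eRPKM), reads in the exons of a gene per kilobase, scaled to the reads of the library, so levels of different genes can be set side by side. Libraries held 5.60 to 8.91 M reads in control liver, 7.25 to 12.6 M in Myc tumours, 3.22 to 10.3 M in Myc-off tumours and 6.15 to 10.5 M in MycVD tumours. Tumours with the same ID were averaged and counted once, so n is the number of IDs. Changes are log2 differences of eRPKM + 0.5 with their standard errors (SE), tested with limma across all 14566 genes. A gene is called, and said to rise or fall, at a Benjamini-Hochberg adjusted p under 0.05. The summed level of 6 hepatocyte markers ran from 582 to 1062 eRPKM per control library and from 379 to 717 per Myc tumour, with none of the 6 at 0. The highest reads per kb of a gene over 500 bp lay between 1450 and 2172 in every library. Levels of very abundant genes such as these markers may therefore depend on library depth, which was not tested. For 9 erythroid markers the sum ran from 51.2 to 94.2 eRPKM in control liver. It ran from 138 to 473 with Myc on, from 135 to 451 with Myc off and from 107 to 360 with MycVD. In bulk tissue fewer cells of a type and less RNA per cell cannot be told apart.

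In Myc tumours 8 of the 9 genes rose over control liver and 1, Rbl2, fell. Among all tested genes 50.0% rose and 29.9% fell in this comparison. The median change of the 9 was 1.35, against 0.27 for all tested genes. With median-ratio scaling of the libraries the median of all genes moved to 0.04 and the share of higher genes among the called ones from 62.5% to 51.5%. Relative to the median of all genes the 9 changes ran from -1.10 for Rbl2 to 2.29 for E2f1. The share of all tested genes whose IDs did not overlap between groups was not computed. Statements on overlap here describe single genes and do not show a trait particular to the family.

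**Figure D1:**
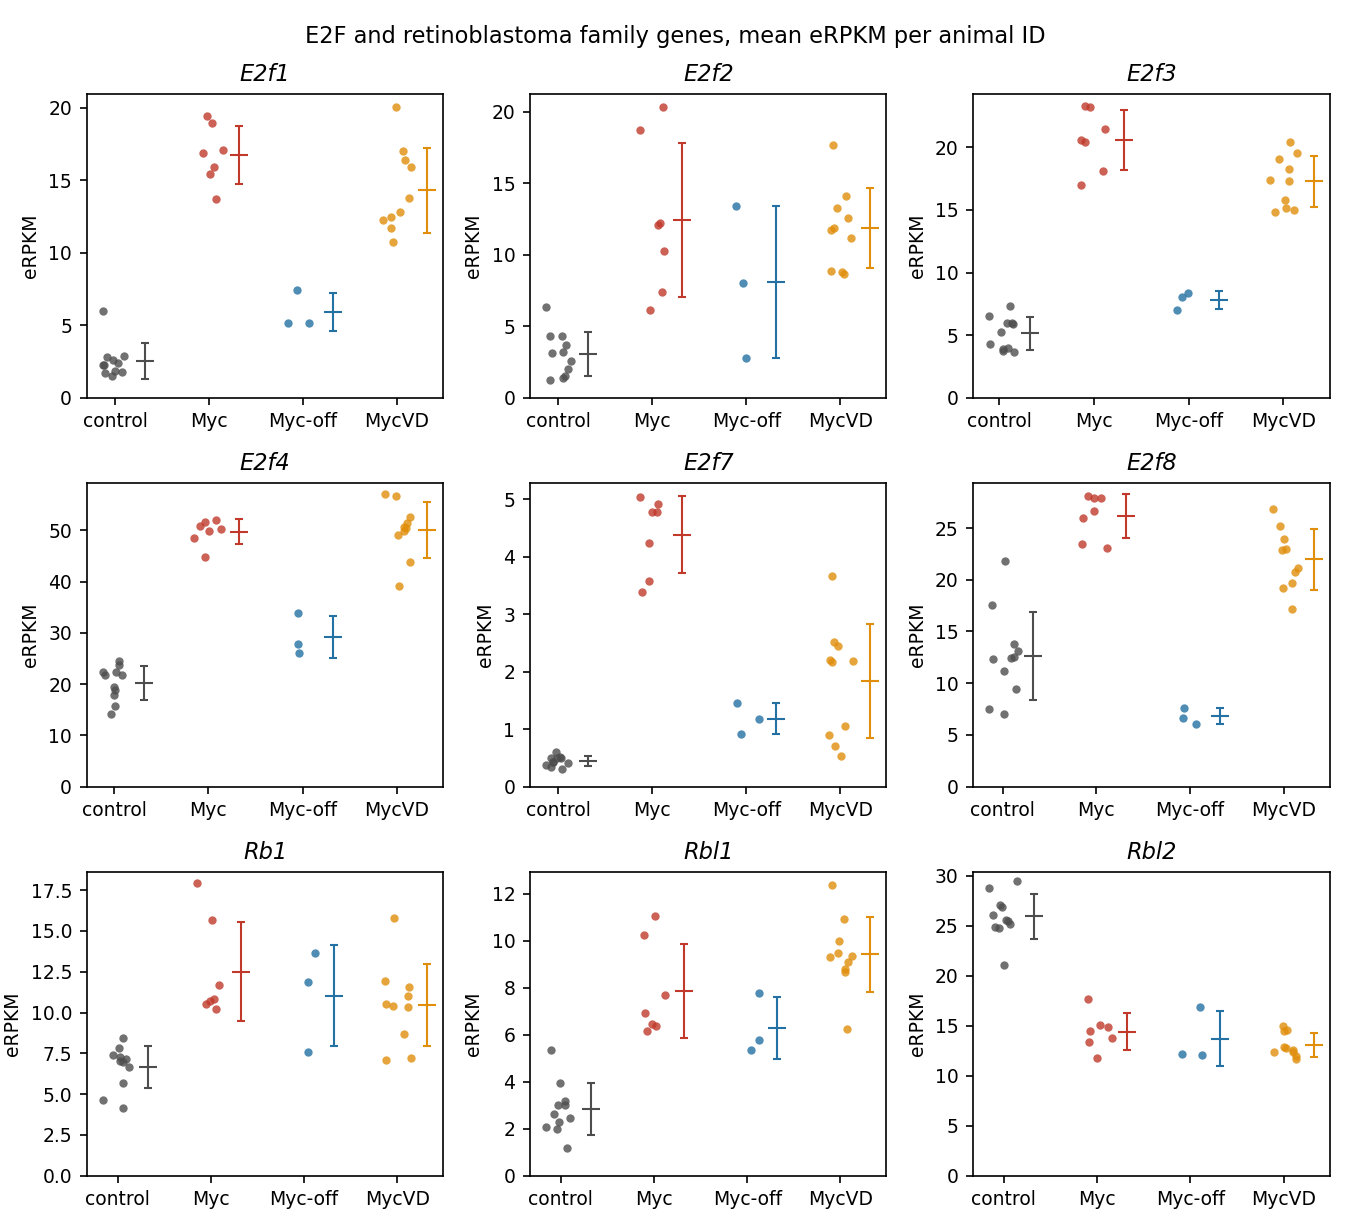
Level of each of the 9 genes in eRPKM (vertical axes, from 0), 1 point per animal ID, with the mean and SD of each group at the right of its points. In 7 of the 9 panels every Myc tumour ID lies above every control ID, Rbl2 is the reverse, and E2f2 overlaps. By limma 50.0% of all tested genes rose and 29.9% fell, and the share of all genes without overlap was not computed.

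E2f1, the classical activator of S-phase genes, was at 1.52 to 6.001 eRPKM in control IDs (median 2.27) and at 13.7 to 19.5 in Myc tumour IDs (median 16.8). The highest control, ID128993, stood well above the other 10, yet the groups did not overlap. The means were 2.55 ± 1.24 (SD, n = 11) and 16.8 ± 2.01 (n = 7), a log2 change of 2.57 ± 0.16 (limma adjusted p = 2.3e-15). It was the largest change of the family at the pseudocount of 0.5, but with a pseudocount of 0.1 E2f7, at 3.03, exceeded E2f1, at 2.76. E2f3, an activator expressed more evenly through the cell cycle, went from 3.65 to 7.35 eRPKM in controls (median 5.22) to 17.0 to 23.3 in Myc tumours (median 20.6), again without overlap. Its log2 change was 1.93 ± 0.12 (adjusted p = 8.1e-16).

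The promoter of E2f3 is shown because its upstream bases hold an E2F core next to the start site. Motifs were searched in windows of 300 bases around RefSeq start sites (build GRCm38.p6), 250 before and 50 after, on both strands. The E2F core was the word TTCCCGC, the word TTCGCGC, the word TTGCCGC or the word TTGGCGC, and 9.57% of all 32851 windows hold at least 1. In the sequences here, capitals mark such a core, in either orientation, and only bases before the start site are printed. A match describes letters and is not evidence of binding.
E2f3 (chr13:29986064-29986213, minus strand): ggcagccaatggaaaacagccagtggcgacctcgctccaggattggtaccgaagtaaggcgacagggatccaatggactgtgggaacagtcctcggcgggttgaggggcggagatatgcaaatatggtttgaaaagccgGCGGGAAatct
This core starts 11 bases before the start site, and a further core lies 19 bases after it. A separate E2f3 start site has no core in its window but holds the E-box CACGTG, a sequence that Myc can bind, 24 bases upstream. That word occurs in 7.15% of all windows. Of the 9 genes, 7 had a window in the RefSeq table and 5 of these held a core: E2f2, E2f3, E2f7, E2f8 and Rbl1. E2f2 and E2f3 had 2 windows each, with a core in 1 of them. Counted by window, as for the 9.57%, 5 of 9 held a core. The windows of E2f1 and Rbl2 held none.

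E2f2, the third activator gene, was at 1.23 to 6.36 eRPKM in control IDs (median 3.14) and at 6.13 to 20.3 in Myc tumour IDs (median 12.1). One Myc tumour ID lay below the highest control, and 6 of 7 lay above all controls. The means were 3.06 ± 1.56 (SD, n = 11) and 12.4 ± 5.36 (n = 7), and the log2 change was 1.81 ± 0.27 (adjusted p = 4.9e-07). The spread among Myc tumour IDs was the widest of the 9 genes, with a coefficient of variation of 43.1% against 4.95% for E2f4. Among MycVD tumour IDs it was 23.6% for E2f2, below 54.4% for E2f7. All 9 erythroid markers rose in Myc tumours too (median 2.12), and their part in the changes of E2f2, Rb1 and Rbl1 was not tested. Other markers differed as well, where 50.0% of all tested genes rose and 29.9% fell. All 4 neutrophil markers (median 3.09) and 5 of 7 T and NK cell markers rose. Of 6 hepatocyte markers 6 fell, of 6 endothelial ones 4 and of 5 cholangiocyte ones 3. Macrophage markers (3 up, 2 down of 7) and stellate markers (2 up, 1 down of 5) were mixed. Of 2 tested B cell markers 1 fell. The part of these cell types was not tested.

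E2f4 encodes the E2F that carries pocket proteins to promoters in resting cells, and it was the most abundant E2F of the family in every group. It was at 14.2 to 24.4 eRPKM in control IDs (median 21.7) and at 44.8 to 51.9 in Myc tumour IDs (median 50.2). The ranges lay far apart, and the tumours varied little. The log2 change was 1.29 ± 0.09 (adjusted p = 2.0e-14).

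E2f7 and E2f8, the pair of atypical repressors, differed in their starting level. E2f7 was nearly silent in control liver, at 0.303 to 0.609 eRPKM (median 0.434), which rests on 15 to 39 reads per library. Myc tumour IDs had 3.38 to 5.04 eRPKM (median 4.77). E2f8 was already well expressed in control liver, at 7.04 to 21.8 eRPKM (median 12.5), and reached 23.0 to 28.1 in Myc tumours (median 26.7). Neither gene overlapped between the groups. The log2 changes were 2.35 ± 0.20 for E2f7 (adjusted p = 2.9e-12) and 1.08 ± 0.14 for E2f8 (adjusted p = 5.0e-08). The ratio of E2f8 to E2f7 levels, a description with no test, averaged 29.3 ± 11.2 in control liver (SD, n = 11) and 6.04 ± 0.63 in Myc tumours (n = 7).

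The upstream sequences of this pair are shown because E2f7 and E2f8 had the largest falls of the family when Myc was turned off.
E2f7 (chr10:110745189-110745438, plus strand): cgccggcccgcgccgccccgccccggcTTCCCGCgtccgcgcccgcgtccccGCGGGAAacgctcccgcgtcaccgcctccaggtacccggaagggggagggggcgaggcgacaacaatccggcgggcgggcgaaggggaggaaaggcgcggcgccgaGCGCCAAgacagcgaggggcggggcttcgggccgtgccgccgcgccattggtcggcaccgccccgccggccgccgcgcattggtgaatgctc
E2f8 (chr7:48881597-48881746, minus strand): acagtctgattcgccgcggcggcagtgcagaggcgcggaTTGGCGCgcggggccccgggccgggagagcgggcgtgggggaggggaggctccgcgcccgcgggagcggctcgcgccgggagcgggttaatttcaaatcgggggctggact
E2f7 held 3 cores, at 223, 198 and 92 bases before its start site, and E2f8 held 1 at 111 bases before.

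The pocket protein genes moved in different directions. Rb1, the retinoblastoma tumour suppressor gene, was at 4.15 to 8.42 eRPKM in control IDs (median 7.03) and at 10.2 to 18.0 in Myc tumour IDs (median 10.8). Rbl1 was at 1.17 to 5.36 in controls (median 2.64) and at 6.18 to 11.1 in Myc tumours (median 6.95). Rbl2 was at 21.1 to 29.5 in controls (median 25.6) and at 11.8 to 17.7 in Myc tumours (median 14.5). No ID of either group overlapped for any of the 3 genes, with Rb1 and Rbl1 high and Rbl2 low in every tumour ID. The log2 changes were 0.83 ± 0.15 for Rb1 (adjusted p = 9.7e-06), 1.35 ± 0.17 for Rbl1 (adjusted p = 1.8e-08) and -0.83 ± 0.08 for Rbl2 (adjusted p = 1.5e-11).

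The upstream bases of Rbl1 and Rbl2 are set together because these related genes went opposite ways.
Rbl1 (chr2:157204535-157204684, minus strand): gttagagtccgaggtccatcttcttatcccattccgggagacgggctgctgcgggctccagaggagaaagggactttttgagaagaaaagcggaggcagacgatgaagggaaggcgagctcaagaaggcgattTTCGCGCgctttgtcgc
Rbl2 (chr8:91069907-91070056, plus strand): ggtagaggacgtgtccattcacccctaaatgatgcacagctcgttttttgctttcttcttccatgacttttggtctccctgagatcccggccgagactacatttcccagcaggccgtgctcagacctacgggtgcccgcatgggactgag
The core of Rbl1 starts 17 bases before its start site. Rbl2 held none of the 4 words.

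Summed over Rb1, Rbl1 and Rbl2, pocket protein transcripts were at 35.4 ± 1.61 eRPKM in control liver (SD, n = 11) and 34.8 ± 4.89 in Myc tumours (n = 7). The composition of this sum differed: Rbl2 made up 73.2 ± 4.99% of it in control liver and 42.0 ± 6.81% in Myc tumours, while Rbl1 made up 8.06 ± 3.33% and 22.3 ± 2.84%. The 6 E2F genes summed to 44.0 ± 7.85 eRPKM in control liver and 130.02 ± 7.88 in Myc tumours. E2f1, E2f2 and E2f3 together reached 0.306 ± 0.106 of the pocket protein sum in control liver and 1.44 ± 0.13 in Myc tumours. These sums and ratios are descriptions of transcript levels and carry no test.

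**Figure D2:**
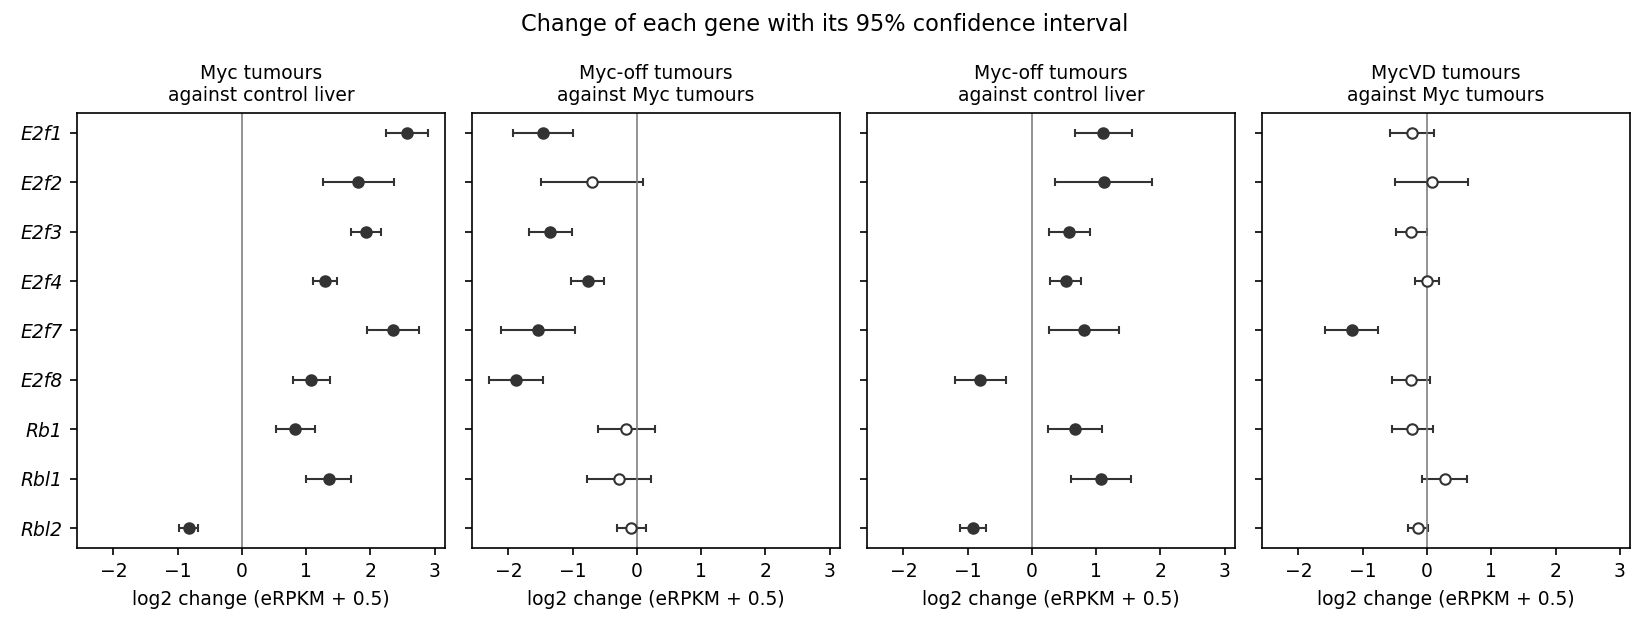
Log2 change of each gene (horizontal axes, on eRPKM + 0.5) in 4 comparisons, with its 95% confidence interval; filled points passed the limma threshold. The pocket protein genes sit near 0 in Myc-off against Myc tumours, where E2f8 is lowest at -1.88, and E2f7 is the only filled point in MycVD against Myc tumours.

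After 16 h with Myc turned off, 5 of the 6 E2F genes were lower, and the 3 pocket protein genes had no called change. Of the 9 genes, 5 fell from Myc tumours to Myc-off tumours (E2f1, E2f3, E2f4, E2f7 and E2f8), 0 rose (also at an unadjusted p under 0.05) and 4 were not called. Of all tested genes 28.2% fell and 22.2% rose. The median change of the 9 was -0.77, against -0.01 for all genes. The Myc-off IDs have the highest numbers of the series, and what a later date or batch may add is confounded with the doxycycline: they cannot be told apart. In the same comparison 5 of 5 cholangiocyte markers rose (limma, median 2.94), with a summed level of 24.8 to 172 eRPKM per Myc-off library against 4.24 to 43.9 per Myc tumour library. Of 6 hepatocyte markers 5 rose (median 0.82, 445 to 1177 against 379 to 717 eRPKM), and of 9 erythroid markers 0 were called, 0 also at an unadjusted p under 0.05. The hepatocyte levels may also depend on library depth, at medians of 7.11 M reads in Myc-off and 9.62 M in Myc tumours. The part of these cell types in the falls of the E2F genes was not tested.

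E2f8 had the largest fall. It was at 6.08, 6.68 and 7.61 eRPKM in the 3 Myc-off IDs, against 23.0 to 28.1 in Myc tumours, a log2 change of -1.88 ± 0.21 (limma adjusted p = 5.6e-09), or 3.69-fold. The Myc-off values were close together and lay far below every Myc tumour. E2f7 was at 0.912, 1.18 and 1.45 eRPKM in Myc-off IDs against 3.38 to 5.04, a change of -1.54 ± 0.28 (adjusted p = 3.5e-05). Those values also lay below every Myc tumour. The E2f8 to E2f7 ratio was 5.99 ± 1.62 (SD, n = 3), close to that of Myc tumours.

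E2f1 was at 5.12, 5.14 and 7.44 eRPKM in Myc-off IDs and fell by 1.46 ± 0.23 on the log2 scale (adjusted p = 3.6e-06). E2f3 was at 7.02, 8.04 and 8.40 and fell by 1.35 ± 0.17 (adjusted p = 5.4e-08). E2f4 was at 26.1, 27.7 and 33.9 and fell by 0.77 ± 0.13 (adjusted p = 7.0e-06). For each of these 3 genes every Myc-off ID lay below every Myc tumour ID.

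E2f2 did not pass the threshold. Its Myc-off IDs were far apart, at 2.77, 8.01 and 13.4 eRPKM, and 1 of the 3 lay below all Myc tumours. The change was -0.70 ± 0.39, with a 95% confidence interval from -1.49 to 0.10 (adjusted p = 0.14). Without ID153344, the highest of the 3, it was -1.16 (adjusted p = 0.028), and without ID151964, the lowest, it was -0.10 (adjusted p = 0.87). The erythroid markers of the same IDs ran in the same order as E2f2: the libraries of ID151964 summed to 135 and 141 eRPKM, those of ID150584 to 195 to 299 and those of ID153344 to 320 to 451.

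Rb1 was at 7.60, 11.9 and 13.7 eRPKM in Myc-off IDs, a change of -0.16 with a confidence interval from -0.60 to 0.28 (adjusted p = 0.56). Rbl1 was at 5.33, 5.76 and 7.77, a change of -0.28 with an interval from -0.78 to 0.22 (adjusted p = 0.36). Rbl2 was at 12.1, 12.2 and 16.9, a change of -0.09 with an interval from -0.31 to 0.13 (adjusted p = 0.54). The upper bound for Rbl2, 0.13, lay below the 0.83 by which the gene had fallen in Myc tumours. The pocket protein sum was 31.04 ± 5.19 eRPKM (SD, n = 3), of which Rbl2 made up 44.3 ± 5.39%. Set beside the activator sum, the ratio of E2f1, E2f2 and E2f3 to the pocket genes was 0.709 ± 0.144, between those of control liver and Myc tumours.

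Against control liver, Myc-off tumours had 7 of the 9 genes higher and 2 lower, while 36.3% of all tested genes were higher and 21.6% lower. The comparison shares the Myc-off samples with the one above. Median-ratio scaling moved the median of all genes from 0.15 to -0.02 and the share of higher genes among the called ones from 62.7% to 48.0%. E2f8 was the gene that went past its control level. Its 3 Myc-off IDs, at 6.08 to 7.61 eRPKM, stood against controls at 7.04 to 21.8, and 2 of the 3 lay below every control, a log2 change of -0.80 ± 0.19 (adjusted p = 7.5e-04). Rbl2 remained lower than in control liver, by -0.92 ± 0.10 (adjusted p = 5.4e-09), with all 3 IDs below every control. Rbl1 was higher by 1.07 ± 0.23 (adjusted p = 2.0e-04) and E2f1 by 1.11 ± 0.22 (adjusted p = 6.4e-05), although only 1 of 3 Myc-off IDs exceeded control ID128993 for E2f1. E2f4 was higher by 0.52 ± 0.12. E2f3 was higher by 0.58 ± 0.16 (adjusted p = 0.0020), but by 0.20 with quantile normalisation (adjusted p = 0.15), under which only 5 of the 9 genes remained called.

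The other 3 calls of that comparison did not pass the threshold in every fit that left out 1 Myc-off ID. E2f2, at 1.11 ± 0.37 (adjusted p = 0.010), was 0.65 without ID153344 (adjusted p = 0.19), 0.98 without ID150584 (adjusted p = 0.062) and 1.71 without ID151964. Rb1, at 0.67 ± 0.20 (adjusted p = 0.0057), was 0.51 without ID150584 (adjusted p = 0.075). E2f7, at 0.81 ± 0.27 (adjusted p = 0.010), was 0.70 without ID151964 (adjusted p = 0.066). All 3 Myc-off IDs lay above every control for E2f7, and 2 of 3 did so for E2f2 and for Rb1.

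Between MycVD and Myc tumours few of the 9 genes were called, as for all tested genes, and the number depended on the fit. In alternative fits it was 3 with only the 2 groups fitted, 2 with array weights and 0 with a filter of 5 eRPKM, which removed E2f7. Of the 9 genes 1 was lower in MycVD than in Myc tumours, 0 were higher and 8 were not called (at an unadjusted p under 0.05, 2 lower and 0 higher), against 9.17% of all tested genes lower and 6.56% higher. The share of higher genes among the called ones moved from 41.7% to 53.1% with median-ratio scaling. MycVD tumours have later ID numbers than Myc tumours throughout, and a batch effect and the V394D substitution cannot be told apart.

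The gene was E2f7. Its 10 MycVD IDs ran from 0.533 to 3.67 eRPKM (median 2.17), and 9 of the 10 lay below every Myc tumour ID. The mean was 1.84 ± 1.00 (SD, n = 10) against 4.39 ± 0.67 (n = 7), a log2 change of -1.17 ± 0.20 (limma adjusted p = 1.6e-04). MycVD IDs spanned a 6.89-fold range of E2f7, from 0.533 in ID133764, 0.703 in ID133762 and 0.908 in ID134664 to 3.67 in ID133074. Only ID133764 lay within the range of the control IDs, 0.303 to 0.609 eRPKM. Of the other 8 genes the widest range over MycVD IDs was 2.22-fold. The E2f8 to E2f7 ratio accordingly ran from 6.86 to 50.4 in MycVD tumours, and from 5.28 to 6.81 in Myc tumours. Some cell type markers also differed between MycVD and Myc tumours. Of 7 macrophage markers 3 were lower, led by Marco at -1.91 ± 0.34, and their summed level was 108 to 183 eRPKM per MycVD library against 147 to 251. Of 7 T and NK cell markers 2 were lower, led by Gzma at -1.82 ± 0.30 (7.59 to 20.2 against 13.5 to 27.9 eRPKM), and 1 of 6 endothelial markers, Stab2, was lower at -1.04 ± 0.30 (35.7 to 82.4 against 44.5 to 98.9). Of 6 hepatocyte markers 3 were higher, led by Ttr at 0.79 ± 0.10 (499 to 762 against 379 to 717), and 1 of 5 cholangiocyte markers, Epcam, was higher at 1.94 ± 0.50 (5.27 to 71.6 against 4.24 to 43.9). The hepatocyte levels may again depend on library depth, at medians of 7.78 M reads in MycVD and 9.62 M in Myc tumours. No marker of these lists was at 0 in all libraries of either group, and their part in the difference of E2f7 was not tested.

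The remaining genes gave changes between -0.25 for E2f8 (95% confidence interval from -0.55 to 0.05, adjusted p = 0.25) and 0.28 for Rbl1 (from -0.08 to 0.63, adjusted p = 0.29). E2f1 stood at -0.23 (from -0.57 to 0.10), and E2f3 stood at -0.24 (from -0.49 to -0.00, adjusted p = 0.16). E2f4, at 50.05 ± 5.42 eRPKM in MycVD tumours, gave the narrowest interval among the E2F genes, from -0.18 to 0.19. E2f2 had a wide one, from -0.49 to 0.64. With only the 2 groups in the fit E2f3 and E2f8 also passed (adjusted p = 0.049 and 0.042), and with array weights Rb1 did (-0.38, adjusted p = 0.039).

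Against control liver, which is also the reference of the Myc tumour comparison, MycVD tumours had 8 of the 9 genes higher and 1 lower, where 49.1% of all tested genes were higher and 31.1% lower. Median-ratio scaling moved the median of all genes from 0.22 to 0.03 and the share of higher genes among the called ones from 61.2% to 51.0%. E2f1 was higher by 2.33 ± 0.15, E2f2 by 1.89 ± 0.25, E2f3 by 1.68 ± 0.10 and Rbl1 by 1.63 ± 0.15. E2f4 was higher by 1.30 ± 0.08, E2f8 by 0.83 ± 0.13 and Rb1 by 0.61 ± 0.14. Rbl2 was lower by -0.96 ± 0.07 (adjusted p = 4.0e-14), and no MycVD ID reached the lowest control. E2f7 was higher by 1.18 ± 0.18 (adjusted p = 5.8e-07), with 9 of 10 IDs above all controls.

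The tumours of one mouse were not alike for every gene. In the 9 IDs with several tumours, the highest tumour had 1.01 to 1.31 times the E2f4 level of the lowest, and 1.05 to 4.44 times the E2f2 level. In ID125320 the 4 Myc tumours had 5.86, 6.39, 9.97 and 26.0 eRPKM of E2f2 and 6.45, 8.61, 9.83 and 17.1 of Rb1. Tumour D was the highest for both genes. The same tumour had 74.2 eRPKM of Slc4a1, the gene of the red cell anion exchanger, against 11.7 to 37.1 in the other 3. In ID125324 tumour B likewise had 23.3 eRPKM of E2f2 and 82.6 of Slc4a1, and the other 3 had 6.79 to 10.04 and 26.6 to 39.6.

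**Figure D3:**
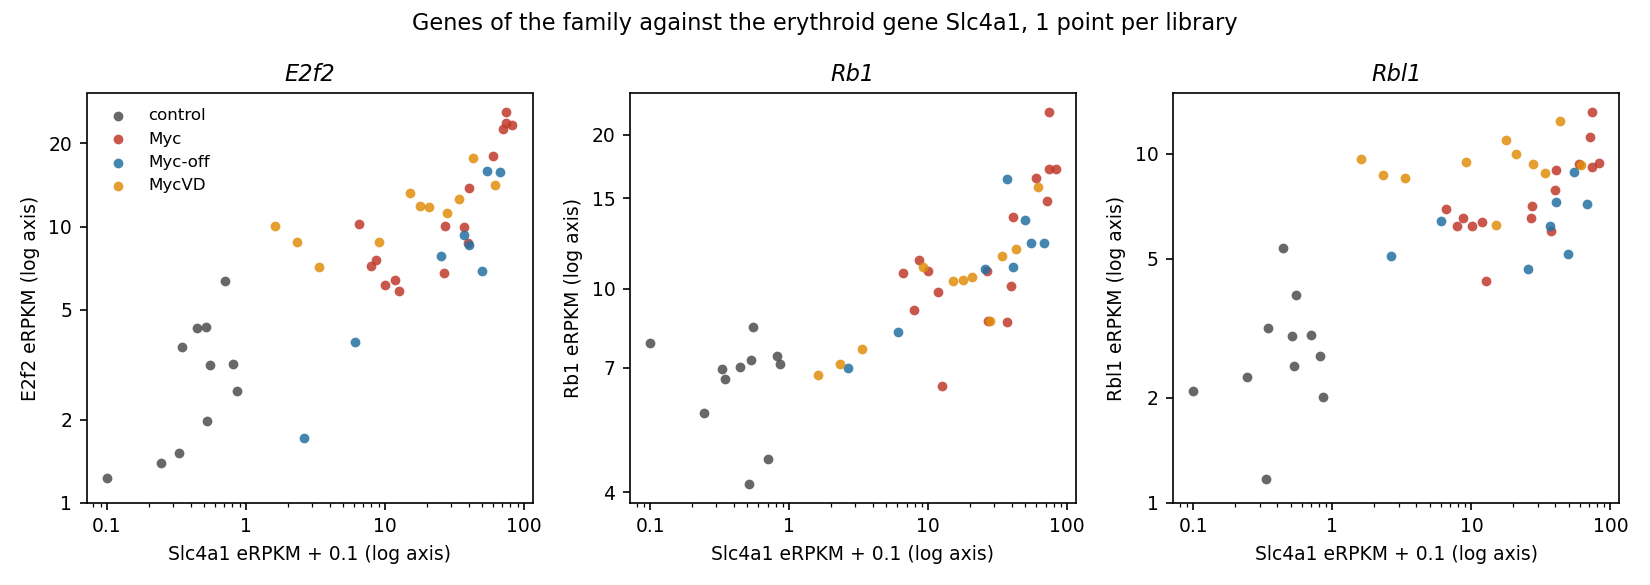
Levels of E2f2, Rb1 and Rbl1 (vertical log axes, eRPKM) against the erythroid gene Slc4a1 (horizontal log axis, eRPKM + 0.1), 1 point per library, coloured by group. The Myc tumours with over 20 eRPKM of E2f2 all lie at the right edge, at 71.2 to 82.6 eRPKM of Slc4a1.

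Within groups, the level of E2f2 ran with that of the erythroid markers (mean log2 over the 9 markers). This was noticed in these data, and 27 relations were computed, for the 9 genes in each of the 3 larger groups. In control liver Pearson's r was 0.95 (permutation p = 8e-05, adjusted 0.0022), Spearman's rho was 0.94 (p = 0.00012, adjusted 0.0032) and r was 0.92 without the 2 farthest IDs (n = 11). In MycVD tumours r was 0.86 (permutation p = 0.0015, adjusted 0.021), rho was 0.81 (p = 0.0083, adjusted 0.072) and r was 0.76 without the 2 farthest (n = 10). In Myc tumours r was 0.88 (permutation p = 0.0099, adjusted 0.067), rho was 0.82 (p = 0.034, adjusted 0.18) and r was 0.79 without the 2 farthest (n = 7). Rb1 gave an r of 0.85 in MycVD tumours (permutation p = 0.0029, adjusted 0.026), with a rho of 0.79 (p = 0.0089, adjusted 0.072) and an r of 0.60 without the 2 farthest. Its r was 0.78 in Myc tumours (permutation p = 0.035, adjusted 0.12; rho 0.75, p = 0.066, adjusted 0.22) but -0.45 in control liver (permutation p = 0.17, adjusted 0.36; rho -0.43, p = 0.19, adjusted 0.36). Rbl1 gave an r of 0.84 in Myc tumours (permutation p = 0.020, adjusted 0.085), a rho of 0.68 (p = 0.11, adjusted 0.30) and an r of 0.76 without the 2 farthest. Its r was 0.59 in control liver (permutation p = 0.055, adjusted 0.17) but 0.27 in MycVD tumours (permutation p = 0.46, adjusted 0.59). E2f3 and E2f4 came as close in control liver, with an r of 0.72 (permutation p = 0.018) and 0.69 (permutation p = 0.022), each adjusted 0.085. No relation other than those of E2f2 in control liver and of E2f2 and Rb1 in MycVD tumours had an adjusted p under 0.05 by either measure. Erythroid cells are known to express E2f2 and Rb1, and their share of these levels was not tested.

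DP proteins bind DNA together with E2Fs. Tfdp1, which encodes the main one, was at 17.5 to 28.1 eRPKM in control IDs and at 63.0 to 78.6 in Myc tumour IDs. It rose by 1.59 ± 0.08 (limma adjusted p = 2.0e-17) and fell by 1.14 ± 0.12 after the switch-off (adjusted p = 1.9e-09). E2f5, a pocket-dependent repressor like E2f4, rose by 1.79 ± 0.09 and then fell by 1.05 ± 0.13. Tfdp2 and E2f6 rose by 1.21 ± 0.12 and 0.46 ± 0.12 and fell by 0.80 ± 0.17 and 0.71 ± 0.17. All 4 thus rose in Myc tumours and fell when Myc was turned off. E2f6, which represses without pocket proteins, was also lower in MycVD than in Myc tumours, by -0.55 ± 0.12 (adjusted p = 0.0029).

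Of 37 G1/S genes known as E2F targets, 37 rose in Myc tumours, with a median change of 3.23, and 35 fell after the switch-off, with a median of -1.36. Of all tested genes 50.0% rose and 28.2% fell in these comparisons. The largest rises were those of Mybl2, a cell cycle transcription factor gene, at 5.23 ± 0.16 and Uhrf1, which maintains DNA methylation, at 4.94 ± 0.28. The largest fall was that of Pold1, the catalytic subunit of DNA polymerase delta, at -2.23 ± 0.23. Slbp, which encodes a histone mRNA binding protein, stood at -0.20 and was not called. Between MycVD and Myc tumours limma called 0 of the 37 (median -0.04), with 1, Pold1, lower at an unadjusted p under 0.05. Mki67, a marker of cycling cells, was at 64.0 ± 12.5 eRPKM in Myc-off tumours (SD, n = 3) against 93.8 ± 9.17 in Myc tumours (n = 7), a change of -0.57 ± 0.32 that did not pass (adjusted p = 0.14).

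**Figure D4:**
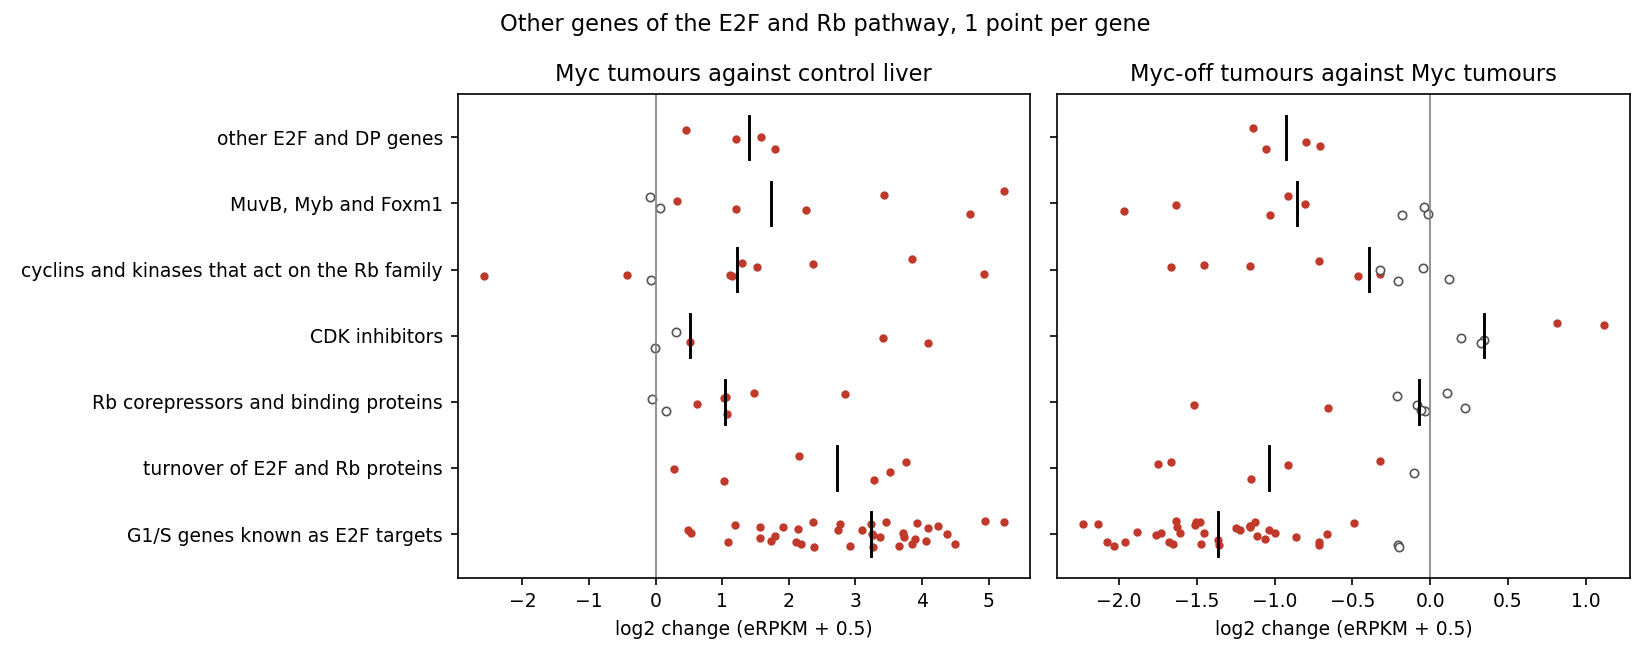
Log2 change (horizontal axes, on eRPKM + 0.5) of the genes of 7 lists around the E2F and pocket proteins, 1 point per gene, filled where called by limma, with a bar at the list median. All 37 G1/S target genes lie above 0 in Myc tumours against control liver (median 3.23), and the list lies below 0 after the switch-off (median -1.36).

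MuvB proteins join p107 or p130 with E2F4 in a repressor complex and later join B-Myb and FoxM1 as activators. Of 8 genes of these proteins, 6 rose in Myc tumours, beside 50.0% of all tested genes, with a median of 1.73. Foxm1 rose by 4.72 ± 0.14, whereas the MuvB subunit genes Lin52 and Rbbp4 stood at -0.08 and 0.07 and were not called. After the switch-off 5 of the 8 fell, beside 28.2% of all tested genes, Foxm1 by 1.97 ± 0.20 and Mybl2 by 1.63 ± 0.23. Lin52 was the 1 gene of the 8 that differed in MycVD tumours, at -0.32 ± 0.10 against Myc tumours. Of 6 genes for the turnover of E2F or pocket proteins, 6 rose and 5 then fell, against the same shares of all genes. Fbxo5, which restrains the ubiquitin ligase APC/C, rose by 3.77 ± 0.14 and fell by 1.75 ± 0.21. Ccnf, which encodes cyclin F, a ubiquitin ligase subunit, rose by 3.52 ± 0.14 and fell by 1.66 ± 0.20.

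The kinases that inactivate pocket proteins changed unevenly. Of 10 tested genes for these cyclins and kinases, 7 rose in Myc tumours and 2 fell, where 50.0% of all tested genes rose and 29.9% fell. Ccna2 rose by 4.94 ± 0.12 and Ccne1 by 3.86 ± 0.17, the genes of cyclins A2 and E1. Of the D-type cyclin genes, Ccnd1 and Ccnd2 fell, by 2.58 ± 0.20 and 0.43 ± 0.13, whereas Ccnd3 rose by 1.15 ± 0.10. The kinase genes Cdk4 and Cdk6 rose by 1.30 ± 0.07 and 1.52 ± 0.13. After the switch-off 6 of the 10 fell (28.2% of all tested genes) and the other 4 were not called, with Cdk6, a kinase partner of D cyclins, down by 1.66 ± 0.18 and Ccne1 by 1.46 ± 0.25. In MycVD tumours Cdk6 and Ccnd2 were lower than in Myc tumours, at -0.58 ± 0.13 and -0.51 ± 0.13, and the other 8 were not called.

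Among CDK inhibitors, which keep pocket proteins active, 3 of 5 tested genes rose in Myc tumours, where 50.0% of all tested genes rose, namely Cdkn1c at 4.09 ± 0.24, Cdkn1a at 3.42 ± 0.32 and Cdkn1b at 0.52 ± 0.10. After the switch-off Cdkn2b rose by 1.12 ± 0.30 (adjusted p = 0.0025) and Cdkn1c by 0.82 ± 0.35 (adjusted p = 0.050), where 22.2% of all tested genes rose. Cdkn2b was also higher in MycVD than in Myc tumours, at 0.66 ± 0.21. Cdkn2a and Cdkn2d were too low to be tested, at most 1.76 and 0.810 eRPKM in any library. Of 8 corepressors and binding proteins of Rb, 6 rose in Myc tumours, beside 50.0% of all tested genes, led by the histone methyltransferase gene Suv39h1 at 2.84 ± 0.10 and Rbbp8, a DNA end resection factor gene, at 1.47 ± 0.09. Suv39h1 and Hdac2, a histone deacetylase gene, fell after the switch-off, at -1.52 ± 0.15 and -0.66 ± 0.11, and the other 6 were not called, where 28.2% of all tested genes fell. In MycVD tumours Suv39h1 and Arid4a were lower than in Myc tumours, at -0.32 ± 0.10 and -0.28 ± 0.10.

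Set against control liver, 36 of the 37 G1/S target genes were still higher in Myc-off tumours, with a median of 1.64, and 37 of 37 were higher in MycVD tumours, with a median of 3.05. In Myc-off tumours 3 of the 4 other E2F and DP genes were higher (median 0.43), as were 4 of the 8 MuvB, Myb and Foxm1 genes (median 0.76), 5 of the 6 turnover genes (median 1.55), 4 of the 5 CDK inhibitors (median 1.42) and 7 of the 8 Rb corepressors and binding proteins (median 0.85). Of the 10 cyclins and kinases 6 were higher and 2 lower (median 0.82). Of all tested genes 36.3% were higher and 21.6% lower in that comparison, with a median of 0.15. In MycVD tumours 49.1% of all tested genes were higher than in control liver.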

How the data were processed

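Total RNA was depleted of ribosomal RNA and sequenced from unstranded TruSeq libraries, per the labels' protocols, so reads of overlapping antisense genes cannot be told apart. The authors deposited exonic RPKM values. Per the submitters' processing notes, TopHat, TopHat2 version 2.0.8 and the build mm9 were used. Not given in the sources used here were the read counter, the annotation, the handling of duplicates and the RPKM denominator. Values were whole multiples of a step for 20029 of 21671 genes (100% whole within 0.001), which gave the reads of these genes in each library. Reads per kb were at most 1450 to 2172 per library over genes longer than 500 bp, and E2f4 reached 667.

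The animal ID was taken as the replicate, which is an assumption, and p-values measure the spread between IDs. Any 2 libraries of one group differed beyond counting noise (chi-square of at least 3.183 per degree of freedom). Log2(eRPKM + 0.5), averaged per ID, was fitted with limma 3.58.1 in R 4.3.3 (eBayes with trend, two-sided, 4 groups in 1 fit), for genes at 1 eRPKM or more in at least 3 IDs. This scale understates the change of low genes. The confidence level is 95%. On simulated data for Myc-off against Myc tumours (14190 genes) 77 of 100 genes changed 2-fold and 96 of 100 changed 4-fold were recovered, with 10 false calls. Only those genes were changed there, with noise independent between genes, whereas 7348 genes were called in the data. These rates therefore need not hold for the data. Permutation tests used Python 3.11.15 with scipy 1.17.1. They drew 100000 resamples in control liver and MycVD tumours and used all pairings in Myc tumours.

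Members and lists were chosen with earlier results of these data known. Named genes were the 9 members, Mki67, the other E2F and DP genes, and up to 2 called genes per list and direction in each comparison; some of these are not reported here. Genes outside this rule (Lin52, Rbbp4, Slbp, Cdkn1b, Ccnd3, Cdk4 and the untested genes), Slc4a1 and the single markers were named after their values were seen. For each member the 3 genes with the smallest root mean square log2 difference over 31 IDs were listed. Promoters came from RefSeq (GRCm38.p6), another build than that of the files. Alternatives were 14 planned and 2 chosen after seeing the data.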

Additional observations from a re-analysis of the deposited data

How the results depend on the processing

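The 33 called changes of the 9 genes kept their direction in all 1034 alternative fits and their call in 1025. Of the 9 losses, 5 came with quantile normalisation: Rb1 in MycVD against control (0.23), and E2f2 (0.68), E2f3 (0.20), E2f7 (0.26) and Rb1 (0.36) in Myc-off against control, which left 5 members called there. The other 4 came from leaving out 1 Myc-off ID, as given in the results. In MycVD against Myc tumours 3 members passed with only the 2 groups fitted and 2 with array weights. A filter of 5 eRPKM removed E2f7 from that comparison, and limma then called 0 of 8, with 1, E2f3, at an unadjusted p under 0.05. Uncalled changes near 0 turned sign there for E2f2 (-0.0003 with every tumour as its own sample, -0.025 with array weights, -0.055 to 0.22 over leaving out single IDs), E2f3 (0.021 with a depth term) and E2f4 (-0.077 with quantile normalisation, -0.010 with array weights, -0.034 without 8 libraries with Gapdh under 30 eRPKM, -0.014 after correction for a ceiling of reads per kb, and -0.020 to 0.043 over leaving out single IDs). In Myc-off against Myc tumours the sign turned for Rbl1 (0.023 with a depth term), Rbl2 (0.065 with quantile normalisation) and Rb1 (-0.33 to 0.070 over leaving out single IDs). The causes were not tested. No paired analysis was possible because the groups share no IDs. Myc-off tumours have only 3 IDs, and E2f7 rests on few reads in control liver, where its change from control to Myc tumours was 3.03 with a pseudocount of 0.1.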

Other observations

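The genes whose pattern over the 31 IDs was most like each member, by the smallest root mean square difference of centred log2 values, were mostly outside the cell cycle lists. For E2f1 they were Gstcd (0.23), Pidd1 (0.25) and Zgrf1 (0.26), and for E2f3 they were Mdc1 (0.19), Hus1 (0.19) and Champ1 (0.19), of which Mdc1 and Hus1 act in the DNA damage response. For E2f4 they were Hspa14, Trim27 and Taf5l (each 0.14). The nearest gene to E2f2 was another member, Rbl1 (0.47), a much looser match. E2f7 (Klhl23, 0.39) and E2f8 (Simc1, 0.26) had different nearest genes. Senp7 (0.24) was nearest to Rb1, Usp37 (0.26), a deubiquitinase gene, to Rbl1, and Spop (0.16), a ubiquitin ligase adaptor gene, to Rbl2. The 31 IDs share 4 group means, so likeness mostly measures those.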
